A study of Mus musculus with 6 samples.

Results

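The 10 genes described here encode the proteins with which cells present antigen on MHC class II, together with the factor that switches those genes on. They were chosen by symbol, and all 10 were found among the 17441 genes listed in any of the 6 libraries of the series. The libraries were made from heart tissue below the ligature of 12-week-old male mice 3 days after surgery, and the strains had a C57BL/6 background. WT Sham stood for wild-type mice after a sham operation, WT MI for wild-type mice with a ligated left coronary artery, which causes a myocardial infarction (MI), and Card9 KO MI for *Card9* knockout mice with the same ligation. Each group had 2 libraries, and paired values are given below as replicate 1 and then replicate 2. Wild-type littermates and C57BL/6 mice both served as controls in the study, and which of them gave these libraries was not given in the sources used here. How the *Card9* allele was made was not described there either. Since no *Card9* KO library of sham-operated mice was analysed here, the effects of genotype and of infarction cannot be told apart where Card9 KO MI is set against WT Sham. Nothing in the labels says that a library is 1 animal, so every p-value below measures the spread between these libraries, which may be technical.

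Values are FPKM, in which fragments are divided by transcript length and library size, so that levels can be compared between genes. The depth of a library, estimated from the steps between low values, was about 3002000 to 4272000 fragments, where 3 fragments on a 1-kb transcript are worth 0.702 to 0.999 FPKM. The correlation between the replicates of a group was 0.980 or 0.981 across the 13120 genes tested, which are those with at least 1 FPKM in at least 2 libraries. *Card9*, an adapter of innate immune signalling and the targeted gene, was listed at 0.99 and 1.03 FPKM (WT Sham), 3.39 and 5.08 (WT MI) and 9.85 and 6.94 (Card9 KO MI). The libraries that carry the knockout label thus had a higher *Card9* FPKM than any wild-type library. The log2 fold change against WT MI was 0.85 (SE 0.23, adjusted p = 0.11). An FPKM of the whole gene also counts fragments outside a deleted part, so it does not show whether a part is missing. Every direction given below for Card9 KO MI, including those drawn as a rise or fall, is that of libraries known by this label. The 6 cardiomyocyte markers, such as *Myh6*, summed to 21290 to 41315 FPKM, so the tissue carried the label's heart muscle genes.

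MHC class II molecules are heterodimers of an alpha and a beta chain that show peptides from internalised proteins to CD4+ T cells. The chains assemble with the invariant chain, which blocks the groove until proteases cut it down to a short fragment, and H2-DM then removes the fragment and lets antigen peptides bind, while H2-DO restrains H2-DM. Dendritic cells, B cells and many macrophages carry class II constitutively or after activation, and interferon-gamma can induce it in others through the transactivator CIITA, which binds no DNA itself and is recruited by RFX, CREB and NF-Y at conserved X and Y boxes of the promoters. In the heart, resident and recruited macrophages and dendritic cells are known carriers of class II.

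Summed class II expression overlapped between WT Sham and WT MI and was about 2-fold higher in Card9 KO MI. The 10 genes summed to 392 and 299 FPKM (WT Sham), 322 and 342 (WT MI) and 781 and 569 (Card9 KO MI). The WT MI sums lay within the range of the WT Sham sums, and both Card9 KO MI sums lay above all 4 wild-type libraries. As a share of all FPKM the 10 genes took 0.0804% and 0.0623%, then 0.0677% and 0.0717%, then 0.165% and 0.121%. The means were 346 ± 65.7, 332 ± 14.6 and 675 ± 150.0 FPKM (SD, n = 2 each), and their ratio was 0.960 for WT MI against WT Sham and 2.03 for Card9 KO MI against WT MI. In bulk tissue, fewer or more cells that express these genes and less or more RNA per cell cannot be told apart.

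The order of the genes by level was nearly the same in every group. *Cd74* ranked 1, followed by *H2-Aa*, *H2-Ab1*, *H2-Eb1*, *H2-DMb1*, *H2-DMa*, *H2-DMb2* and *Ciita*, and *H2-Oa* and *H2-Ob* took ranks 9 and 10 in an order that changed between WT Sham and the other groups. Neighbours in that order often overlapped: *H2-Aa* and *H2-Ab1* overlapped in the WT MI and Card9 KO MI libraries, and *H2-DMa* and *H2-DMb1* overlapped in WT Sham and Card9 KO MI. *Cd74* and *H2-Aa* did not overlap in any group.

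**Figure D1:**
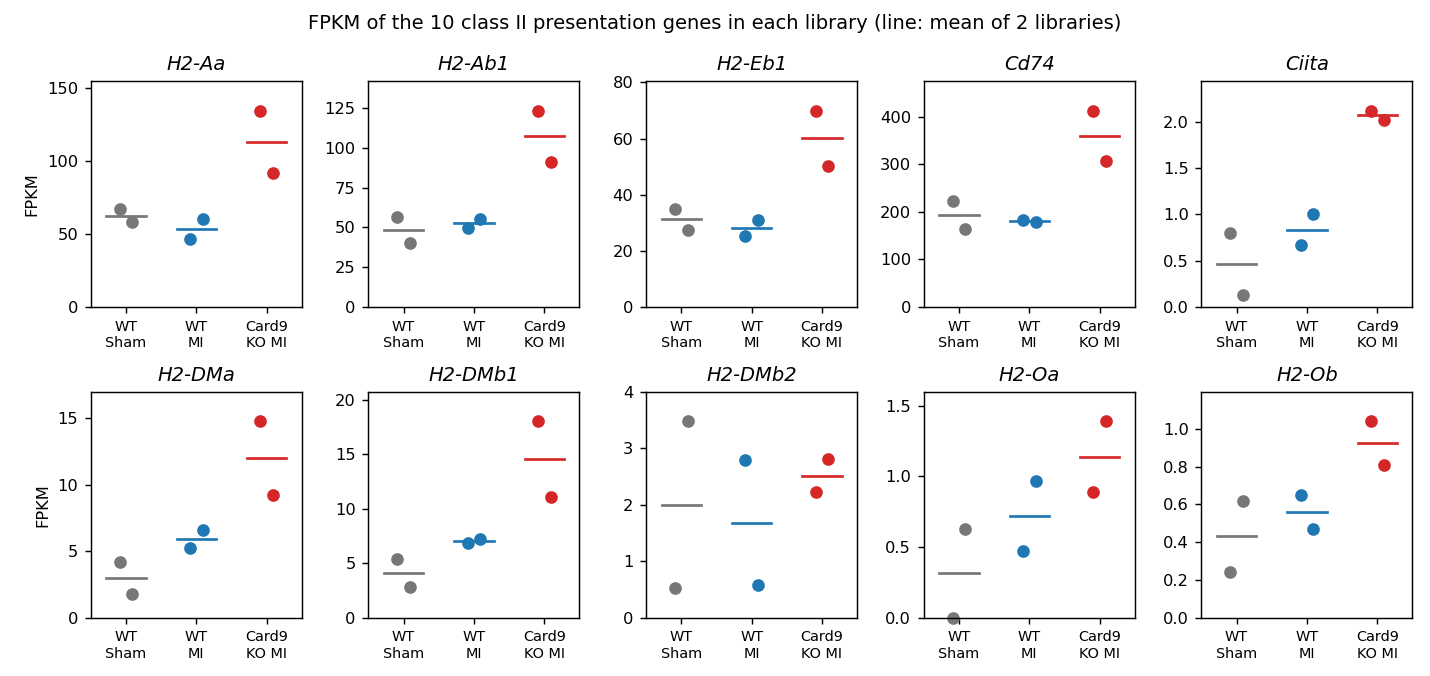
FPKM (y axis, linear, from 0, a separate scale for each gene) of the 10 genes in the 6 libraries, with points for libraries and lines for the mean of the 2 libraries in each group. *Cd74*, *H2-Aa*, *H2-Ab1* and *H2-Eb1* overlap between WT Sham and WT MI, and 8 of the 10 genes lie higher in both Card9 KO MI libraries than in both WT MI libraries (30.8% of all genes tested do), the exceptions being *H2-DMb2* and *H2-Oa*.

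Of the 10 genes, 8 lie on chromosome 17 in the class II part of the mouse H2 complex, and *Cd74* and *Ciita* on other chromosomes. In mm9, the build of the deposited values, *H2-Ab1* spans 34400154 to 34406363 on the plus strand and *H2-Aa* 34406276 to 34424772 on the minus strand, so that their annotated exons share 17 bases on opposite strands. *H2-Eb1* spans 34442828 to 34453144, *H2-DMa* 34272127 to 34276046, *H2-DMb2* 34280252 to 34288498, *H2-DMb1* 34290017 to 34297168, *H2-Oa* 34229285 to 34232179 and *H2-Ob* 34375848 to 34390850, all on the plus strand. Whether the counting used strand was not given in the sources used here, so fragments from the shared bases of *H2-Aa* and *H2-Ab1* cannot be assigned with certainty.

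Promoter sequences of RefSeq (GRCm38.p6 table, 250 bases before and 50 after each start) were matched for 7 of the 10 genes. Each window occurred 1 time on mm9 chromosome 17. The search was limited to that chromosome, so *Cd74* and *Ciita* were left out, and *H2-Ab1* had no entry in the promoter table. The stretches below are shown because these genes share the boxes that bind the regulators described above, and their values are given in the next paragraphs. Capitals mark ATTGG, the core of the Y box, and ACNGATG, part of the X box, where they occur in the order X then Y. All are mm9, 5′ to 3′ on the gene's own strand, and ATTGG begins at position -48, -59, -90, -57 and -43 from the RefSeq start, in the order shown. The stretches of *H2-Aa*, *H2-Eb1* and *H2-Ob* lie outside annotated genes, that of *H2-DMb2* in an intron of the GENCODE gene, and that of *H2-Oa* reaches 16 bases into its GENCODE first exon.
*H2-Aa*, chr17:34424797-34424861, minus strand: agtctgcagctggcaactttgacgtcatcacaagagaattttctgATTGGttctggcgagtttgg
*H2-Eb1*, chr17:34442708-34442772, plus strand: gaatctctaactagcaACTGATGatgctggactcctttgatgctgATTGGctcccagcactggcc
*H2-DMb2*, chr17:34282059-34282123, plus strand: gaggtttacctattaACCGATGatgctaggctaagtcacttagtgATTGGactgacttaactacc
*H2-Ob*, chr17:34375748-34375812, plus strand: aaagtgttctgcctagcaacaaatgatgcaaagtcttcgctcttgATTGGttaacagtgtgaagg
*H2-Oa*, chr17:34229236-34229300, plus strand: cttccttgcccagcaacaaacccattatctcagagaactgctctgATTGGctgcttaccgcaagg

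Searched on both strands, ATTGG was present in the windows of 7 of 7 genes, against 37.4% of all 32851 promoters in the table. The longer CTGATTGG, which contains it, was present in 3 of 7 (*H2-Aa*, *H2-Eb1* and *H2-Oa*), against 4.10%. ACNGATG was present in 5 of 7, against 9.85%, and both ATTGG and ACNGATG in the same 5, against 3.65%. Between the end of ACNGATG and the start of ATTGG lie 22 bases in *H2-Eb1* and 23 bases in *H2-DMb1* and *H2-DMb2*, whereas in *H2-Aa* and *H2-Oa* ACNGATG lies farther upstream, in *H2-Aa* on the other strand. The stretch of *H2-DMb1* is not shown because it lies in an annotated untranslated exon, and the windows of *H2-DMa* lie well upstream of its GENCODE start. These matches describe letters and were chosen because the boxes are known for this gene family.

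The classical chains form the I-A molecule, from *H2-Aa* and *H2-Ab1*, and the beta chain of I-E, from *H2-Eb1*. *H2-Aa*, the I-A alpha chain, was at 66.99 and 58.13 FPKM (WT Sham), 46.82 and 60.54 (WT MI) and 134.79 and 91.65 (Card9 KO MI). Its WT Sham and WT MI libraries overlapped, and both Card9 KO MI libraries were above them. Against WT MI the log2 fold change in Card9 KO MI was 1.05 (SE 0.20, 95% interval 0.59 to 1.5), just outside the threshold at an adjusted p of 0.053. *H2-Ab1*, the I-A beta chain, was at 56.65 and 40.33 FPKM (WT Sham), 49.76 and 55.27 (WT MI) and 123.48 and 91.44 (Card9 KO MI). The pattern was that of *H2-Aa*, with a log2 fold change of 1.01 (SE 0.19, 0.57 to 1.45, adjusted p = 0.054) in Card9 KO MI against WT MI. *H2-Eb1*, the I-E beta chain, was at 34.81 and 27.58 FPKM (WT Sham), 25.44 and 30.90 (WT MI) and 70.01 and 50.37 (Card9 KO MI). Against WT MI it rose in Card9 KO MI, by a log2 fold change of 1.06 (SE 0.19, 0.62 to 1.49, adjusted p = 0.047).

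C57BL/6 mice do not make the I-E alpha chain, and no value of its gene, *H2-Ea*, was analysed here. *H2-Eb2*, another beta-chain gene of the region, was at or below 0.36 FPKM in all 6 libraries and was not tested. The *H2-Aa* to *H2-Ab1* ratio was 1.18 and 1.44 (WT Sham), 0.941 and 1.10 (WT MI) and 1.09 and 1.00 (Card9 KO MI). The alpha chain was thus relatively higher in both WT Sham libraries than in the other 4, and WT MI and Card9 KO MI overlapped.

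*Cd74* encodes the invariant chain, which is also a receptor for the cytokine MIF, and it was the most abundant of the 10 genes. It was at 222.51 and 163.70 FPKM (WT Sham), 182.88 and 178.58 (WT MI) and 413.34 and 307.82 (Card9 KO MI). Both WT MI libraries lay between the WT Sham libraries, and the Card9 KO MI libraries lay above all others. Against WT MI, *Cd74* rose in Card9 KO MI by a log2 fold change of 0.98 (SE 0.18, 0.57 to 1.38, adjusted p = 0.048). *Cd74* relative to the summed classical chains was 1.40 and 1.30 (WT Sham), 1.5 and 1.22 (WT MI) and 1.26 and 1.32 (Card9 KO MI), so that the ratio overlapped between all groups. *Cd74* made up 52.2% to 56.9% of the summed FPKM of the 10 genes in every library.

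*Ciita*, the transactivator, was at 0.80 and 0.13 FPKM (WT Sham), 0.67 and 1.00 (WT MI) and 2.12 and 2.02 (Card9 KO MI). Estimated from length and depth, these values stand for 2.1 to 20.7 fragments in the wild-type libraries and for 47.9 and 44.0 in Card9 KO MI. Both Card9 KO MI libraries were above the other 4. The log2 fold change against WT MI was 0.75 (SE 0.28, 0.10 to 1.40), and it did not pass the test at an adjusted p of 0.20. *Ciita* reached the filter's minimum in both Card9 KO MI libraries and in only 1 other, so it was tested because of the group in which it was high.

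*H2-DMa* and *H2-DMb1* were the only genes of the 10 whose WT MI libraries both lay above both WT Sham libraries, as did 48.3% of all genes tested. *H2-DMa*, the alpha chain of the peptide exchange factor, was at 4.21 and 1.80 FPKM (WT Sham), 5.24 and 6.62 (WT MI) and 14.77 and 9.23 (Card9 KO MI). *H2-DMb1*, its beta chain, was at 5.41 and 2.84 FPKM (WT Sham), 6.88 and 7.25 (WT MI) and 18.04 and 11.07 (Card9 KO MI). In both genes the 3 groups did not overlap and stood in the order WT Sham, WT MI, Card9 KO MI. For WT MI against WT Sham the log2 fold change was 0.85 (SE 0.32, adjusted p = 0.072) for *H2-DMa* and 0.70 (SE 0.29, adjusted p = 0.092) for *H2-DMb1*, and neither passed. For Card9 KO MI against WT MI it was 0.88 (SE 0.32, adjusted p = 0.19) and 0.91 (SE 0.29, adjusted p = 0.14), again without passing. Both passed only for Card9 KO MI against WT Sham, at 1.73 (adjusted p = 0.0032) and 1.61 (adjusted p = 0.0026).

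*H2-DMb2* is a near copy of *H2-DMb1* and encodes another H2-DM beta chain. It was at 0.52 and 3.48 FPKM (WT Sham), 2.79 and 0.58 (WT MI) and 2.22 and 2.81 (Card9 KO MI), so that the libraries of each wild-type group differed more than the groups did. The annotated coding sequences of the copies are 95.9% identical (754 of 786 bases), with an identical run of 221 bases, and fragments from such a run can be given to either copy. *H2-DMb1* took 91.2% and 44.9% of the FPKM of the pair (WT Sham), 71.1% and 92.6% (WT MI) and 89.0% and 79.8% (Card9 KO MI). Where *H2-DMb2* was high, in WT Sham replicate 2 and WT MI replicate 1, *H2-DMb1* was the lower of its group. How the counting divided shared fragments was not given in the sources used here, so the values of either copy alone are uncertain. Summed, the pair was at 5.93 and 6.32 FPKM (WT Sham), 9.67 and 7.83 (WT MI) and 20.26 and 13.88 (Card9 KO MI), again in 3 groups without overlap. Fitted as 1 gene, the sum had a log2 fold change of 0.45 (SE 0.19, adjusted p = 0.11) for WT MI against WT Sham, 0.87 (SE 0.19, adjusted p = 0.076) for Card9 KO MI against WT MI and 1.32 (SE 0.19, adjusted p = 0.0011) for Card9 KO MI against WT Sham.

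**Figure D2:**
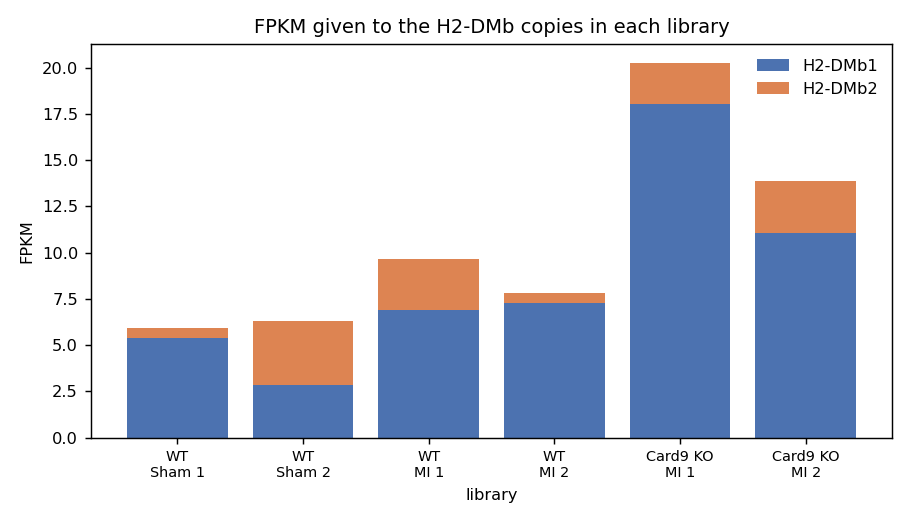
FPKM (y axis, linear, from 0) given to *H2-DMb1* and *H2-DMb2*, stacked, in each of the 6 libraries. *H2-DMb1* takes between 44.9% and 92.6% of the pair, and the height of the stack, 5.93 and 6.32 FPKM in WT Sham against 20.26 and 13.88 in Card9 KO MI, varies less within the WT Sham group than its parts do.

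H2-DM as a whole stood at 6.40% and 6.44% of the summed classical chains (WT Sham), 12.2% and 9.85% (WT MI) and 10.7% and 9.90% (Card9 KO MI). All 4 libraries of infarcted hearts lay above both WT Sham libraries, and WT MI and Card9 KO MI overlapped. With 2 libraries against 2, an exact two-sided permutation test of such a ratio cannot give a p below 0.333, and none was run.

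*H2-Oa* and *H2-Ob* encode the chains of H2-DO, the modulator of H2-DM that is known mainly from B cells and some dendritic cells. *H2-Oa* was listed at 0 and at 0.63 FPKM (WT Sham), at 0.47 and 0.97 (WT MI) and at 0.89 and 1.39 (Card9 KO MI). *H2-Ob* was at 0.24 and 0.62 FPKM, then 0.65 and 0.47, then 1.04 and 0.81. Neither passed the filter, and the values stand for an estimated 0 to 7.0 fragments of *H2-Oa* and 2.0 to 11.9 of *H2-Ob*. Without the filter, in a fit that called none of the 10 genes in this comparison, the log2 fold change of Card9 KO MI against WT MI was 0.32 (SE 0.29, adjusted p = 0.63) for *H2-Oa* and 0.30 (SE 0.18, adjusted p = 0.47) for *H2-Ob*.

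The comparison of WT MI with WT Sham asks what infarction alone changed on day 3. None of the 8 tested class II genes passed, with 2 (*H2-DMa* and *H2-DMb1*) at an unadjusted p under 0.05. Among all genes tested, 27.7% were called higher and 9.39% lower. The log2 fold changes were -0.22 for *H2-Aa* (95% interval -0.68 to 0.23), 0.13 for *H2-Ab1* (-0.31 to 0.57), -0.14 for *H2-Eb1* (-0.57 to 0.29), -0.08 for *Cd74* (-0.49 to 0.33), 0.36 for *Ciita* (-0.30 to 1.01) and -0.09 for *H2-DMb2* (-1.37 to 1.18). For the classical chains and *Cd74*, a 2-fold change in either direction, which is 1 on the log2 scale, lies outside these intervals. The median over the 8 genes was 0.03, beside 0.19 over all genes. The libraries of WT MI lay above those of WT Sham without overlap in 2 of the 10 genes, against 48.3% of all genes tested. Without WT Sham replicate 1, *H2-DMa* (1.30, adjusted p = 0.019) and *H2-DMb1* (1.07, adjusted p = 0.031) were called. The balance of calls over all genes depended on scaling: 3637 genes were called higher and 1232 lower as deposited, but 2603 and 2159 after upper-quartile scaling and 2198 and 2447 after quantile normalization, which moved the median of all genes to 0.00 and -0.09. Relative to that median, the class II genes stood at -0.16 as deposited, -0.15 and -0.08. The sign of *H2-Ab1* turned negative after upper-quartile scaling (-0.08) and quantile normalization (-0.05), and that of *Ciita* after quantile normalization (-0.10).

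The comparison of the libraries labelled Card9 KO MI with WT MI asks what the genotype changed after infarction. *H2-Eb1* and *Cd74* were called higher, 2 of 8 tested, and none was called lower, where 0.816% of all genes were called higher and 0.587% lower. The log2 fold changes of all 8 were above 0 and 7 had an unadjusted p under 0.05, *H2-DMb2* being the exception. The shares of all genes that did so were not counted. *Ciita*, among the 8 and the 7, passed the filter through the Card9 KO MI libraries, so its part in these counts is no support. The median of the 8, with *Ciita*, was 0.94 beside 0.04 over all genes. Among genes with a mean of at least 5 FPKM it was 0.99 beside 0.02. These include 6 of the 10 class II genes, without *Ciita*. In 8 of the 10 genes both Card9 KO MI libraries lay above both WT MI libraries, against 30.8% of all genes tested. The ratios of group means were 2.11 for *H2-Aa*, 2.05 for *H2-Ab1*, 2.14 for *H2-Eb1*, 2.02 for *H2-DMa*, 2.06 for *H2-DMb1*, 2.00 for *Cd74* and 2.48 for *Ciita*. Card9 KO MI replicate 1 was the higher of its group in all 7, by little in *Ciita*. The calls rest on every library: without any 1 of the 4, no class II gene was called, with log2 fold changes of 0.82 to 1.29 for *H2-Eb1* and 0.77 to 1.19 for *Cd74*. The count was 0 to 4 under other settings.

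Against WT Sham, the libraries labelled Card9 KO MI had 7 of the 8 tested genes called higher, where 34.8% of all genes were called higher and 14.3% lower. *Ciita*, among the 7, passed the filter through the Card9 KO MI libraries, so its call is no added support. The log2 fold changes were 0.82 for *H2-Aa* (adjusted p = 0.010), 1.14 for *H2-Ab1* (0.0019), 0.92 for *H2-Eb1* (0.0049), 0.90 for *Cd74* (0.0041), 1.11 for *Ciita* (0.013), 1.73 for *H2-DMa* and 1.61 for *H2-DMb1*. *H2-DMb2* was not called, at 0.42 (adjusted p = 0.55). The median was 1.01, beside 0.24 over all genes, and 0.77 above that median as deposited, 0.75 after upper-quartile scaling and 0.87 after quantile normalization. Those scalings turned the split of all calls from 4569 higher and 1875 lower into 3230 and 2884, and into 2755 and 3444. In 9 of the 10 genes the libraries did not overlap, against 51.6% of all genes tested. Without WT Sham replicate 2, and likewise without Card9 KO MI replicate 1, *H2-Aa* (0.72 and 0.55) and *Ciita* (0.77 and 1.08) were no longer called and 5 remained. The comparisons share the libraries of a group, so their values are not independent of each other.

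**Figure D3:**
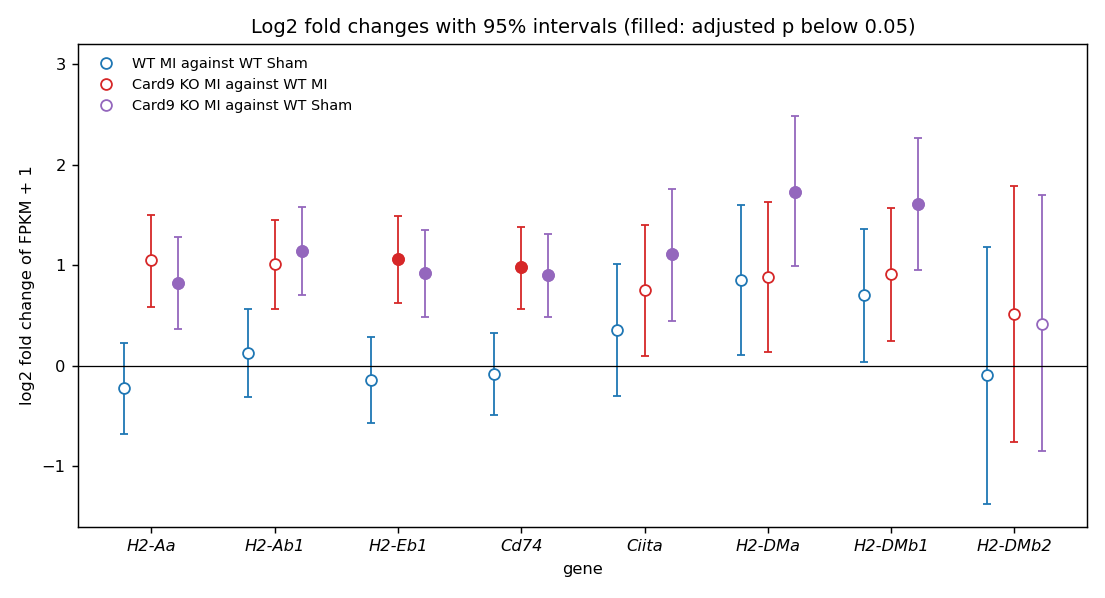
Log2 fold change of FPKM + 1 (y axis) with 95% intervals (bars) from limma for the 8 tested class II genes (x axis) in 3 comparisons, with filled points for an adjusted p below 0.05. For WT MI against WT Sham *H2-Aa*, *H2-Ab1*, *H2-Eb1* and *Cd74* lie near 0. For Card9 KO MI against WT MI all 8 lie above 0 and *H2-Eb1* and *Cd74* are filled. *Ciita* passed the filter through the Card9 KO MI libraries.

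The other genes of the pathway were 37 in 6 groups, of which 35 were tested. In WT MI against WT Sham 19 rose and 1 fell, where 27.7% of all genes were called higher and 9.39% lower. In Card9 KO MI against WT MI 0 were called by limma, where 0.816% of all genes were called higher. Of the 35, 29 had a log2 fold change above 0 and 11 an unadjusted p under 0.05. The shares of all genes that did so were not counted, and the 0.816% is no background for these counts. In Card9 KO MI against WT Sham 26 rose and 1 fell, where 34.8% of all genes were called higher. The medians of their log2 fold changes were 0.55, 0.25 and 0.81, in that order, beside 0.19, 0.04 and 0.24 over all genes, on FPKM as deposited.

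Among the 7 subunits that bind class II promoters and recruit CIITA, 2 rose in WT MI against WT Sham (*Rfxank* and *Creb1*), 0 were called in Card9 KO MI against WT MI (1 at an unadjusted p under 0.05) and 3 rose in Card9 KO MI against WT Sham. These counts lie near the shares of all genes called higher, 27.7%, 0.816% and 34.8%. *Rfxank*, an RFX subunit, was at 7.59 and 10.55 FPKM (WT Sham), 14.09 and 13.49 (WT MI) and 15.49 and 17.63 (Card9 KO MI). *Nfya*, a DNA-contacting subunit of NF-Y, was at 5 and 6.32, then 9.08 and 7.28, then 12.91 and 11.54. For *Nfya*, as for *Rfxank* and *Creb1*, the 3 groups did not overlap and stood in the order WT Sham, WT MI, Card9 KO MI. The share of all genes in that order was not counted. The log2 fold change of *Nfya* in Card9 KO MI against WT MI was 0.53 (SE 0.17, adjusted p = 0.15). The other NF-Y subunits, *Nfyb* (0.07) and *Nfyc* (-0.14), did not pass either.

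Of 10 genes of interferon-gamma signalling and myeloid control of *Ciita*, 9 were tested. *Ifng* itself was listed at 0 in 5 libraries and at 0.21 FPKM in WT MI replicate 1. In WT MI against WT Sham 3 rose and 1 fell, near the shares of all genes called higher (27.7%) and lower (9.39%). *Spi1*, the myeloid factor PU.1, was at 9.82 and 7.24 FPKM (WT Sham), 40.08 and 44.30 (WT MI) and 65.98 and 42.71 (Card9 KO MI). It rose in WT MI by 2.19 on the log2 scale (adjusted p = 0.00028), and the infarcted groups overlapped. *Ifngr2*, a chain of the interferon-gamma receptor, was at 139.14 and 125.05, 91.96 and 107.58, and 101.65 and 105.32 FPKM in the same order of groups, and it fell in WT MI (-0.40, adjusted p = 0.022). The other chain, *Ifngr1*, and the kinase *Jak1* did not pass in WT MI against WT Sham (0.41 and 0.19) or in Card9 KO MI against WT MI (0.18 and -0.08). Chosen after its values were seen, *Irf1*, an interferon-induced factor that acts on *Ciita*, was at 9.86 and 8.73 FPKM (WT Sham), 6.20 and 8.03 (WT MI) and 13.60 and 12.48 (Card9 KO MI). Like the classical chains, it lay higher in both Card9 KO MI libraries than in the other 4, with a log2 fold change against WT MI of 0.80 (SE 0.16, adjusted p = 0.059).

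Of the 7 enzymes that process the invariant chain and antigen, 6 rose in WT MI against WT Sham, where 27.7% of all genes were called higher, and *Sppl2a* did not pass (0.20). A difference between these enzymes and the chains was not tested. *Ctss*, cathepsin S, which makes the last cuts of the invariant chain, was at 21.84 and 16.48 FPKM (WT Sham), 180.38 and 203.40 (WT MI) and 431.28 and 300.97 (Card9 KO MI). It rose in WT MI by 3.27 on the log2 scale (adjusted p = 3.6e-05), and its value against WT MI in Card9 KO MI was 0.91 (adjusted p = 0.064). *Lgmn*, an endosomal protease, rose from 44.79 and 43.54 to 191.49 and 221.80 (2.20). *Ctsb* (1.47) and *Ctsd* (0.50), other lysosomal cathepsins, rose as well. *Ctss* relative to its substrate's gene *Cd74* was 0.0982 and 0.101 (WT Sham), 0.986 and 1.14 (WT MI) and 1.04 and 0.978 (Card9 KO MI). The ratio of group means was 10.7 for WT MI against WT Sham, and WT MI overlapped with Card9 KO MI.

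Of 3 genes of surface turnover, *Marchf1*, a ubiquitin ligase that removes class II from the surface, rose in WT MI against WT Sham (0.95, adjusted p = 0.011), and *Marchf8*, a related ligase, did not pass in any comparison (0.16, -0.21 and -0.05). *Cd83*, which opposes MARCH1, was at 1.75 and 2.59 FPKM (WT Sham), 1.71 and 1.53 (WT MI) and 3.54 and 4.58 (Card9 KO MI). As for the classical chains, wild-type hearts were lower than both Card9 KO MI libraries, with a log2 fold change against WT MI of 0.94 (SE 0.22, adjusted p = 0.083). Of 6 costimulatory or coinhibitory ligands 5 were tested and 3 rose in WT MI against WT Sham, where 27.7% of all genes were called higher. Among those 3 were *Cd86* (1.00) and *Cd40* (1.06), while *Icosl* (0.36) and *Cd274* (-0.34) did not pass. None of the 5 was called in Card9 KO MI against WT MI. *Mif*, a ligand of CD74, and the receptor partners *Cd44*, *Cxcr4* and *Cxcr2* all rose in WT MI against WT Sham (0.57, 2.87, 1.65 and 1.77). The share of all genes called higher there was the same 27.7%. None of these 4 was called in Card9 KO MI against WT MI (-0.03, 0.03, 0.70 and -0.59).

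Markers of cells that could carry class II also differed between the groups. Counts of markers at an unadjusted p under 0.05, here and below, have no share of all genes to be set against. All 10 macrophage markers rose in WT MI against WT Sham, where 27.7% of all genes were called higher. Their sum was 412 and 352 FPKM (WT Sham), 1430 and 1825 (WT MI) and 2912 and 2115 (Card9 KO MI). In Card9 KO MI against WT MI 0 of the 10 were called, 6 had an unadjusted p under 0.05 and the median log2 fold change was 0.73. The class II sum divided by the macrophage sum was 0.951 and 0.849 (WT Sham), 0.225 and 0.187 (WT MI) and 0.268 and 0.269 (Card9 KO MI). It was lower in all 4 libraries of infarcted hearts than in WT Sham, and higher in Card9 KO MI than in WT MI by a ratio of means of 1.30. The size depended on the marker. Divided by *Csf1r* alone, the class II sum was 20.4 and 19.4 (WT Sham), 8.83 and 9.54 (WT MI) and 11.7 and 10.4 (Card9 KO MI). The ratio of means for WT MI against WT Sham was 0.461 with *Csf1r* and 0.229 with the macrophage sum. For Card9 KO MI against WT MI it was 1.20 with *Csf1r*. Relative to *Ptprc*, which encodes the leukocyte antigen CD45, the class II sum was 154 and 95 (WT Sham), 25.1 and 26.2 (WT MI) and 38 and 27.8 (Card9 KO MI). The part of macrophage numbers in the class II values was not tested.

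The 8 dendritic cell markers summed to 6.65 to 9.20 FPKM in WT Sham, 11.6 to 14.1 in WT MI and 20.1 to 21.3 in Card9 KO MI, but did not move together. In 4 of the 8 the WT MI libraries lay above both WT Sham libraries, against 48.3% of all genes tested. Named after its values were seen, *Itgax* was the only one called there, with means of 0.345 FPKM in WT Sham and 4.33 in WT MI. *Zbtb46* went from 4.86 to 3.625 and *Clec9a* from 1.56 to 1.575. Of the 8 markers, *Batf3* was listed at 0 in 1 WT Sham library and *Ccr7* in both, 5 were tested, and in Card9 KO MI against WT MI 0 were called and 1 had an unadjusted p under 0.05. That marker, *Cd209a*, named after its values were seen and found on monocyte-derived dendritic cells, was at 0.43 and 0.45 FPKM (WT Sham), 0.84 and 1.73 (WT MI) and 3.62 and 3.94 (Card9 KO MI) (1.09 against WT MI, adjusted p = 0.078). The 8 B cell markers summed to 6.16 to 7.49 FPKM in WT Sham, 10.1 to 11.8 in WT MI and 11.6 to 11.7 in Card9 KO MI, so that the infarcted groups overlapped. *Pax5*, a defining B cell factor, was listed at 0 in all 4 wild-type libraries and at 0.58 and 0.41 FPKM in Card9 KO MI. *Cd79b*, *Ms4a1* and *Fcer2a* were listed at 0 in 1 WT Sham library each. In 3 of the 8 (*Pax5*, *Ms4a1* and *Fcer2a*) both Card9 KO MI libraries lay above both WT MI libraries, a count near the 30.8% of all genes tested. Those 3 were at or below 0.85 FPKM and were not tested, so that share does not cover genes as low as they are. Of the 4 tested, 0 were called in that comparison. The 8 T cell markers summed to 8.6 to 9.5, 6.99 to 8.46 and 8.46 to 13.2 FPKM, and *Cd3e*, *Cd3g* and *Lck* were each listed at 0 in 1 WT Sham library.

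The 4 markers of resident cardiac macrophages summed to 27.7 to 29.9 FPKM in WT Sham, 42.0 to 46.8 in WT MI and 28.2 to 35.3 in Card9 KO MI, but did not move together. *Folr2* rose in WT MI against WT Sham (0.93) and had the same mean, 21.5 FPKM, in WT MI and Card9 KO MI, and *Timd4* overlapped between all groups. *Lyve1* fell in Card9 KO MI against WT MI by 1.11 on the log2 scale (adjusted p = 0.037). *Cd163* was at 4.57 and 4.80 FPKM (WT Sham), 10.34 and 5.59 (WT MI) and 3.37 and 3.10 (Card9 KO MI). It too lay lower in Card9 KO MI than in WT MI without overlap (-1.03, adjusted p = 0.094), without being called. The 4 monocyte markers summed to 1.51 to 2.48 FPKM in WT Sham, 110 to 128 in WT MI and 80.9 to 88.8 in Card9 KO MI. The lower sum came from *Chil3*, which fell in Card9 KO MI against WT MI by 2.36 on the log2 scale (adjusted p = 0.0073). *Ly6c2* (0.89), *Ccr2* (0.46) and *Plac8* (0.44) lay higher in both Card9 KO MI libraries than in both WT MI libraries, as did 30.8% of all genes tested. None of them was called, and the nearest libraries were almost equal for *Ccr2* (18.72 against 18.67 FPKM) and *Plac8* (21.78 against 21.57). The 5 measured neutrophil markers summed to 3.50 to 6.02, 86.6 to 201 and 40.6 to 55.4 FPKM. All 5 lay lower in Card9 KO MI than in WT MI without overlap. The share of all genes that did so was not counted, so this count is a description only. The WT MI libraries also differed widely, as in *S100a8* at 68.91 and 25.26 FPKM. Of the 5, 0 were called, where 0.587% of all genes were called lower, and 2 had an unadjusted p under 0.05. Endothelial markers, another possible carrier of induced class II, summed to 299 to 304, then 311, then 362 to 363 FPKM, with 0 of 6 called in Card9 KO MI against WT MI (2 at an unadjusted p under 0.05). The 4 fibroblast markers summed to 374 to 383, then 676 to 925, then 1199 to 1252 FPKM, which followed *Col1a1* (1.06 in Card9 KO MI against WT MI, adjusted p = 0.034). *Tcf21* was at 0.62, *Dcn* at -0.16 and *Pdgfra*, lower without overlap, at -0.52 in the same comparison, none of them called. The part of any of these cells in the class II values was not tested.

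**Figure D4:**
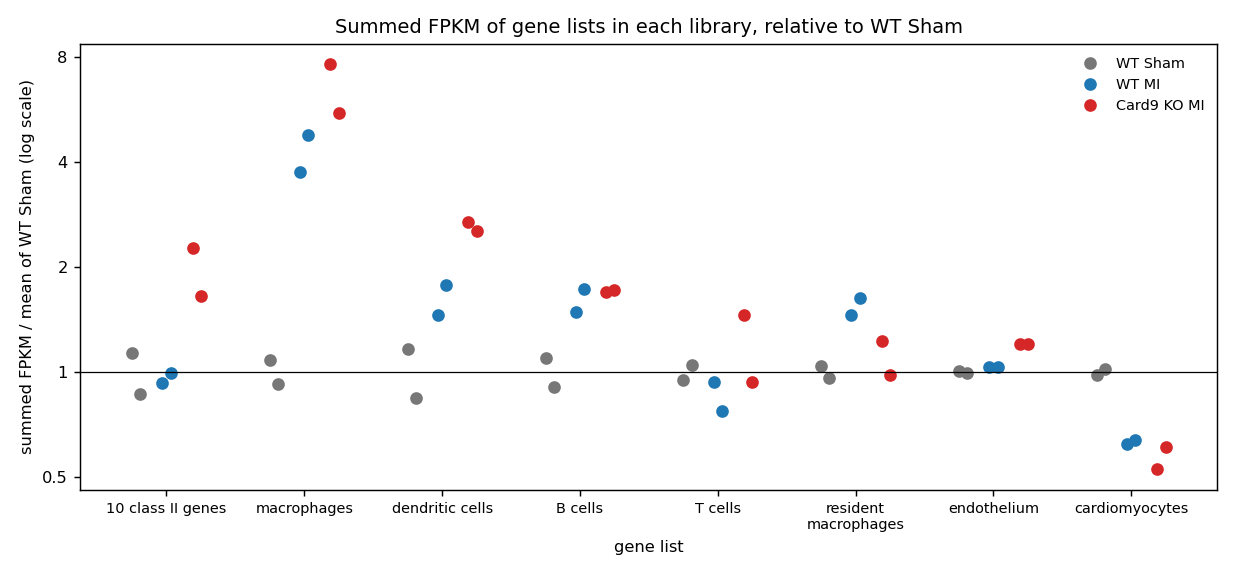
Summed FPKM of gene lists in each library divided by the mean of the WT Sham libraries (y axis, log scale), with 1 point per library. The 10 class II genes stay near 1 in WT MI while the 10 macrophage markers rise. In Card9 KO MI the sums of the class II genes and of the macrophage, dendritic cell and endothelial markers lie above both WT MI libraries, though not every gene of each list does.

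On chromosome 17, 10 other tested genes lie within 100 kb of the 223.9 kb that hold the class II genes. Their log2 fold changes in Card9 KO MI against WT MI ran from -0.02 to 0.68, with a median of 0.28, and 0 were called. Those of the 6 tested class II genes there ran from 0.52 (*H2-DMb2*) to 1.06 (*H2-Eb1*). The highest of the others, named after their values were seen, were *Psmb9* (0.60), *Tap1* (0.60) and *Psmb8* (0.68), genes of MHC class I peptide supply that lie between *H2-DMb1* and *H2-Ab1*, at adjusted p of 0.13 to 0.14.

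**Figure D5:**
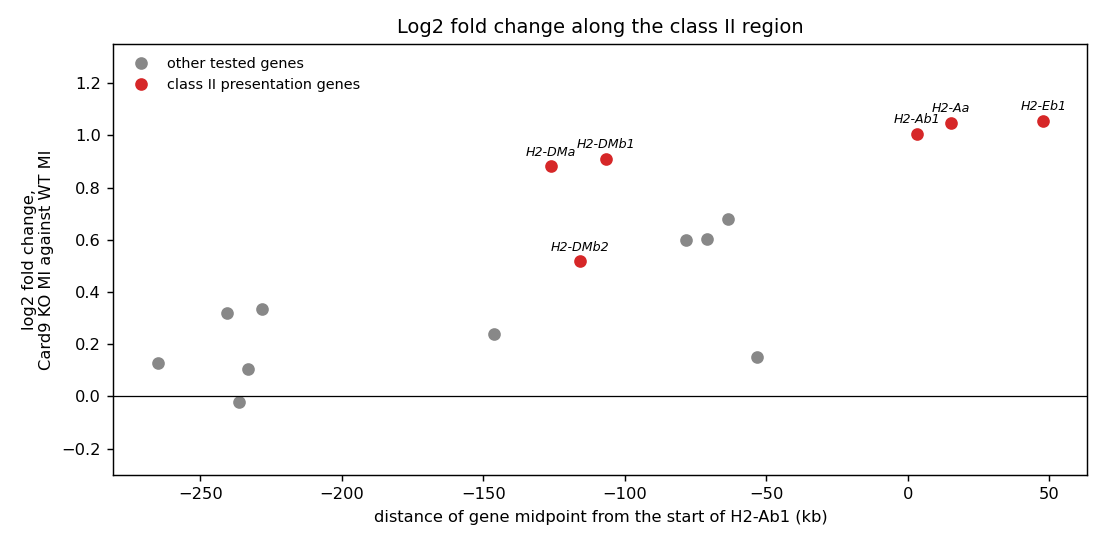
Log2 fold change in Card9 KO MI against WT MI (y axis) of the tested genes of the class II region by the distance of their midpoint from the start of *H2-Ab1* in kb (x axis), class II genes in red and others in grey. The 3 genes nearest to 0 on the x axis are *H2-Ab1*, *H2-Aa* and *H2-Eb1*, at 1.01 to 1.06, and the grey points lie between -0.02 and 0.68.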

How the data were processed

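The authors extracted RNA with TRIzol, made poly(A)-enriched libraries, mapped the filtered Illumina HiSeq reads to mm9 (BWA, Bowtie2), and computed the FPKM values they deposited for each library by NCBI gene number, listing genes above 0. The replicates of a group were kept as separate libraries here. Whether hearts were pooled within a library was not given in the sources used here. Genes not listed were set to 0. The gene annotation, the use of strand and the treatment of fragments shared by gene copies are not given in the sources used here. FPKM is relative to its library, so a few abundant genes shift all others.

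Symbols came from a RefSeq table of GRCm38.p6 (51 of 17441 gene numbers had none), positions and transcript lengths from GENCODE on mm9, and promoter sequences from RefSeq. Depth, estimated from the steps between low values, was about 3002000 to 4272000 fragments. Only 66.8% to 71.8% of low values came out within 0.1 of a whole number of fragments, so counts were not rebuilt. Estimated fragments cover counting error only.

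The test was limma 3.58.1 in R 4.3.3 (lmFit, and eBayes with trend) on log2(FPKM + 1), for the 13120 genes with at least 1 FPKM in at least 2 libraries, with the 3 groups in 1 fit and no covariates. Fold changes are on that scale, which understates changes of low genes. P-values were adjusted by Benjamini-Hochberg over all genes tested, and a call is an adjusted p below 0.05. For counts at an unadjusted p under 0.05 the share of all genes was not counted. The study's own screen, NOIseq, gives no p and was not run. Data were simulated from these libraries for Card9 KO MI against WT MI (13120 genes), with normal noise and changes of FPKM + 1 in genes drawn from all levels. Of 100 genes changed 2-fold 48 were recovered, of 100 changed 4-fold 89, and 10 unchanged genes were called. For low genes a 2-fold change of FPKM is smaller on that scale, so this recovery does not apply to them. Tables and figures were made in Python 3.11.15 with pandas 2.3.3, numpy 2.4.6 and matplotlib 3.10.9, and coding sequences were aligned with Biopython 1.88.

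The 10 genes, the pathway and marker lists and the settings were chosen with earlier results of these data known. All 10 genes are named. Of each pathway list, genes called in Card9 KO MI against WT MI and then those of highest mean FPKM are named, up to 4 a list, and other names are stated as chosen later or are in the counts. Marker lists are given by counts, sums and markers at 0. Alternatives were a pseudocount of 0.1 or 5, no filter or a mean of at least 5 FPKM, upper-quartile scaling, quantile normalization, only the groups compared in the fit, no trend in eBayes, a replicate block, a 2-fold change as well, *H2-DMb1* and *H2-DMb2* summed, and each library left out in turn.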

Additional observations from a re-analysis of the deposited data

How the results depend on the processing

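For Card9 KO MI against WT MI, the count of class II genes called, 2 of 8 tested, fell to 0 with a pseudocount of 0.1, without the filter, with only the groups compared in the fit and with eBayes without trend, and was 4 with a pseudocount of 5, with a mean of at least 5 FPKM (of 6 tested) and after quantile normalization. It was 1 when a 2-fold change was also asked for. The genes gained were *H2-Aa* and *H2-Ab1*, at an adjusted p of 0.037 to 0.046. Leaving out each library in turn gave 0 to 0. Over these settings the log2 fold change of *H2-Eb1* stayed between 0.82 and 1.29 and that of *Cd74* between 0.77 and 1.19. For WT MI against WT Sham the count was 0 under every other alternative and 0 to 2 with each library left out. For Card9 KO MI against WT Sham it was 7, or 6 after quantile normalization, where *Ciita* was lost (0.60, adjusted p = 0.095), 6 of the 6 tested with a mean of at least 5 FPKM, 4 with a 2-fold change as well and 5 to 7 with each library left out. With fewer libraries or more genes tested, the test has less to go on by construction; the cause of the other changes was not tested.

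The groups share replicate numbers, but the labels do not say that a number marks a shared animal, day or batch, and replicate differences correlated at 0.0024, 0.020 and -0.0083 across genes for the 3 comparisons. With the replicate block, 1 class II gene was called in Card9 KO MI against WT MI, since *H2-Eb1* stood at an adjusted p of 0.075, and the counts against WT Sham stayed at 0 and 7.

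Over all genes, calls in Card9 KO MI against WT MI were 107 higher and 77 lower, and 47 and 33 with a pseudocount of 0.1, 200 and 112 with 5, 7 and 5 without the filter, 148 and 136 with a mean of at least 5 FPKM, 125 and 118 after quantile normalization, 69 and 32 with only the groups compared, 40 and 18 without trend, 45 and 26 with the block, 67 and 38 with a 2-fold change, and 3 to 11 higher and 5 to 9 lower with a library left out. A 2-fold change as well left 1924 higher and 266 lower in WT MI against WT Sham and 2630 and 569 in Card9 KO MI against WT Sham. Leaving out a library left 2256 to 2994 higher and 627 to 839 lower in WT MI against WT Sham. The values of *H2-Oa*, *H2-Ob* and *H2-DMb2* and the wild-type values of *Ciita* rest on few fragments.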

Other observations

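The genes outside all lists whose log2(FPKM + 1) followed the mean of the class II genes most closely over the 6 libraries were *Ctdspl* (r = 0.998), *Fbxw9* (0.997), *Bambi* (0.996), *Spry1* (0.996) and *Sltm* (0.996). Of 13022 genes compared, 127 had r of at least 0.95 and 8 at least 0.99. *Fbxw9* was at 1.53 and 1.06 FPKM (WT Sham), 1.73 and 1.64 (WT MI) and 4.74 and 3.12 (Card9 KO MI). *Spry1*, an inhibitor of receptor tyrosine kinase signalling, was at 16.46 and 14.92, then 17.22 and 16.59, then 26.69 and 21.99 FPKM. These correlations describe 6 points that share depth and tissue composition, and they were picked as the highest of all genes.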
